A study of Homo sapiens with 6 samples.

Results

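The erythroid transcription factors described here are 10 genes, GATA1, GATA2, TAL1, KLF1, LMO2, NFE2, ZFPM1, BCL11A, GFI1B and MYB, out of 62252 annotated genes in the tables. A gene's members were all transcripts that GENCODE release 44 gives under its symbol, and their estimated counts and TPM (a level corrected for transcript length and scaled so that each library sums to 1000000) were summed. The RNA came from K562, a human erythroid leukemia cell line grown in suspension. The Chelator group (3 libraries) was kept overnight with 10 µM 21H7, a cell-permeable iron chelator, and the DMSO group (3 libraries) received a matched volume of the solvent. The submitters call the 3 libraries of a group biological replicates of 1 cell line; p-values measure the spread between these libraries.

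Erythroid cells are specified by a small set of DNA-binding proteins that work as complexes. GATA1 and GATA2 are zinc-finger proteins that bind the same GATA sequence. GATA2 acts in stem and progenitor cells, and GATA1 takes over as red cells form. TAL1, a basic helix-loop-helix protein, joins GATA proteins through the bridging protein LMO2 and the adaptor LDB1. ZFPM1 (also FOG1) binds GATA1 directly as a cofactor without contacting DNA. KLF1 binds CACC-type sequences in globin and other red-cell genes, and NFE2 pairs with small Maf proteins at enhancers such as that of the beta-globin locus. GFI1B and BCL11A are repressors, BCL11A being best known for silencing fetal globin, and MYB keeps progenitors dividing. The comparison asks how the messages of these factors differed when K562 cells had little available iron.

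Promoter sequences were read from RefSeq (build GRCh38.p14, 250 bases before to 50 bases after each annotated start) for 8 of the 10 genes, 15 promoters in all. LMO2 and NFE2 were not among them. Shown are those of KLF1, which fell, and ZFPM1, which rose, of the TAL1 start just upstream of its main transcript, and of the distal and proximal GATA2 starts, whose levels are compared further on. All are written 5′ to 3′ on the strand of the gene. Capitals mark GATA matches in KLF1 and TAL1 (GATA preceded by A or T and followed by A or G, on either strand, so that some are read as TATC) and CCNCNCCC matches, also on either strand, in GATA2 and ZFPM1.
KLF1, chr19:12887152-12887451, minus strand: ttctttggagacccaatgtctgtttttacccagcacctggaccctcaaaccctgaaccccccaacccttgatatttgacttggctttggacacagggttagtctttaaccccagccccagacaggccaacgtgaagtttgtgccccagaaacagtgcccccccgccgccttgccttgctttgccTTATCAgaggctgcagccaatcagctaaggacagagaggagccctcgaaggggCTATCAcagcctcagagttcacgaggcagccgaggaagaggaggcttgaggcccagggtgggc
TAL1, chr1:47232286-47232585, minus strand: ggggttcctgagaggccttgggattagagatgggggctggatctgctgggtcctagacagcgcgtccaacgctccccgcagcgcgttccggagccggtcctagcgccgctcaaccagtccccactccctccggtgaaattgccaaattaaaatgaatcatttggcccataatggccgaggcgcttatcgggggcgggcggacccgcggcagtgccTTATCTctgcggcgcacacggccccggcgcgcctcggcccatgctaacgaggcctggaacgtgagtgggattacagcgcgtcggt
GATA2 distal, chr3:128493152-128493451, minus strand: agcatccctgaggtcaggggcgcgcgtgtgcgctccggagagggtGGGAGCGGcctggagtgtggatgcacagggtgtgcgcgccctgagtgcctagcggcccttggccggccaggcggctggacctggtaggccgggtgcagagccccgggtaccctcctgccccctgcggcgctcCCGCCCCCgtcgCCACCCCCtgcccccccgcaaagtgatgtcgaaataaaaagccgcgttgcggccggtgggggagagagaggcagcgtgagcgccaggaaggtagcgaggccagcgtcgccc
GATA2 proximal, chr3:128488481-128488780, minus strand: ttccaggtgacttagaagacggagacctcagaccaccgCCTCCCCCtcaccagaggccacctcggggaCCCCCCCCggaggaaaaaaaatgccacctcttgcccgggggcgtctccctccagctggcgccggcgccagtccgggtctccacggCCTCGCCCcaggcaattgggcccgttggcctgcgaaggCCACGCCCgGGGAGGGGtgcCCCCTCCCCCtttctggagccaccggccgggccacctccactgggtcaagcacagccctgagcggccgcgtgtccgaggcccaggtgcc
ZFPM1, chr16:88453030-88453329, plus strand: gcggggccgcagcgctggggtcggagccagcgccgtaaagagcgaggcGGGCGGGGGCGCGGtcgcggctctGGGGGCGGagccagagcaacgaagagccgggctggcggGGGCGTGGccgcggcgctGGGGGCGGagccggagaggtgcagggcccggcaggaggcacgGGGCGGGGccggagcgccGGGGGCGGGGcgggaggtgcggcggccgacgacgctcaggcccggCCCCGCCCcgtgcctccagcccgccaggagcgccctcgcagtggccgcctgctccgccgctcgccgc
The KLF1 promoter held 2 GATA matches, which began 66 and 13 bases before the annotated start. The TAL1 promoter held 1, which began 35 bases before it. The TAL1 promoter also held 2 CCNCNCCC matches, which are not in capitals, and the KLF1 promoter held 0. The ZFPM1 promoter, at 83.0% G and C, held 9 CCNCNCCC matches and no GATA match. The distal and proximal GATA2 promoters held 3 and 7 CCNCNCCC matches and no GATA match. A GATA match was found in 4 of the 15 promoters (26.7%) and in 8769 of 35116 promoters of the same length. CCNCNCCC was found in 11 of the 15 (73.3%) against 56.2% of those promoters. The hypoxia-response core ACGTG or GCGTG, also read on both strands and able to lie inside a CCNCNCCC match, was found in 11 of the 15 (73.3%) against 48.4%. BCL11A gave 5 of the 15 promoters, and these matches describe letters in a window, not binding.

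The libraries held 78615500 to 90383600 estimated counts in DMSO and 85449900 to 101095000 in Chelator. A measure of fragment length, taken as the mean number of bases by which effective length fell short of full length in uncounted transcripts, was 252 to 264 in DMSO and 201 to 218 in Chelator, so it and the treatment cannot be told apart. All 10 erythroid markers examined (the globins and TFRC among them) were above 1 TPM, with a summed level of 16973 to 18497 TPM in DMSO and 24335 to 25790 in Chelator. Of 14 markers of other cell types 6 were above 1 TPM, their sum was 87.7 to 94.96 TPM in DMSO and 79.6 to 86.7 in Chelator, and MS4A1, ELANE and PF4 had no count. Among them MPO had 0, 1 and 1 counts in DMSO and 178, 242 and 158 in Chelator, and CD3E and COL1A1 also passed (1.97 and 1.602 on the log2 scale), at a mean of 1.83 TPM or less. EPCAM and LYZ were the most abundant of these markers, at 65.4 ± 3.27 and 11.7 ± 0.336 TPM in DMSO and at 47.9 ± 2.35 and 18.6 ± 1.26 TPM in Chelator. The part of fragment length and of these other markers in the results that follow was not tested. In bulk RNA, fewer cells of a type and less RNA per cell cannot be told apart.

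All of the factors except BCL11A were abundant. In DMSO, GATA1 stood highest at 170.5 ± 7.39 TPM (SD, n = 3 here and below), followed by GATA2 at 157 ± 6.79 and NFE2 at 147 ± 8.06. LMO2 (92.7 ± 8.23), MYB (87.4 ± 7.93) and KLF1 (82.0 ± 4.89) formed a middle group, GFI1B (54.7 ± 3.54) and TAL1 (53.6 ± 7.05) came next, and ZFPM1 stood at 15.7 ± 0.706 TPM. Neighbours in this order overlapped in their DMSO values from GATA1 to NFE2, from LMO2 to KLF1, and for GFI1B and TAL1. BCL11A lay far below at 0.0749 ± 0.0305 TPM. Among the 26074 genes with more than 10 counts in all, 96.9% had a lower mean TPM than GATA1, 78.8% a lower one than ZFPM1 and 11.2% a lower one than BCL11A. In Chelator the order changed in the middle. GATA1 (159 ± 7.27 TPM), GATA2 (147 ± 5.84) and NFE2 (113 ± 6.95) kept the first 3 places, MYB (72.7 ± 3.11) came before LMO2 (57.3 ± 1.13), and KLF1 (50.9 ± 2.81) stood below GFI1B (54.2 ± 0.417). Only GATA1 and GATA2 overlapped as neighbours in the Chelator order.

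**Figure D1:**
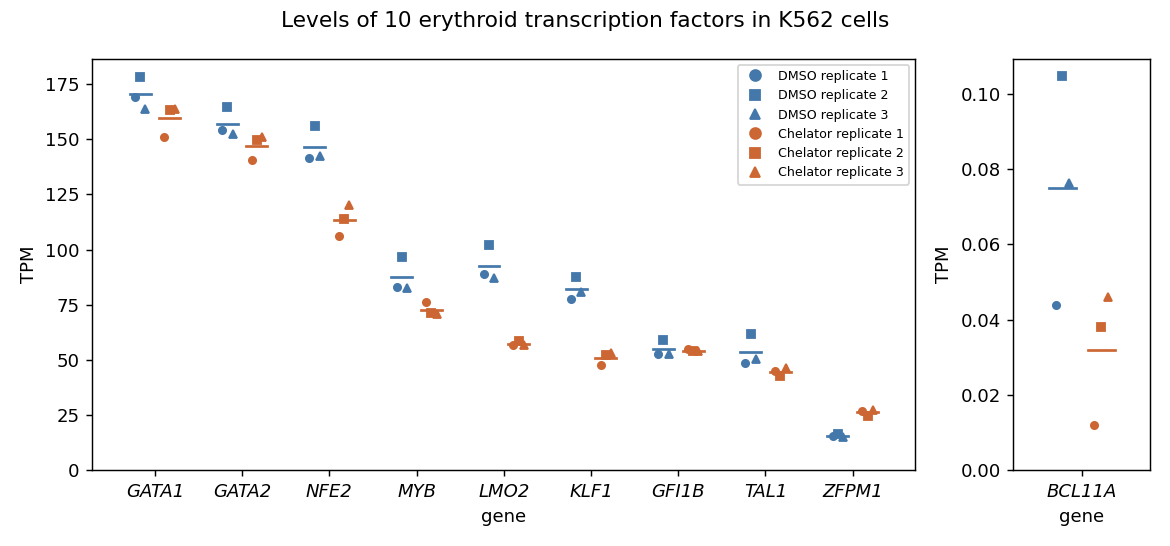
Level in TPM (vertical axes, linear from 0) of the 10 factors in each of the 6 libraries; points are libraries, short lines group means, blue DMSO and orange Chelator, and BCL11A has its own axis because its highest value is 0.105 TPM. KLF1, LMO2, NFE2, MYB and TAL1 lie lower in all 3 Chelator libraries, ZFPM1 lies higher, and GFI1B overlaps.

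Of the factors 5 fell, 1 rose and 4 did not pass the test. Differences were tested with DESeq2's Wald test over all genes, on counts normalized for library size and average transcript length, with Benjamini-Hochberg adjustment. The fold threshold, a log2 fold change beyond 1 in either direction together with an adjusted p under 0.05, was met by 0 of the 10 factors (with edgeR also 0) and by 10.8% of the 24542 genes tested. By adjusted p alone 6 of 10 passed, against 37.7% of all genes, with 5 lower (18.3% of all genes) and 1 higher (19.5%). Among 4032 abundant genes (mean normalized counts of 5000 or more), a range that holds all the factors except BCL11A, 67.5% passed and 44.6% passed as lower. The normalized counts of the groups did not overlap for 7 of the 10, against 49.2% of all genes and 73.4% of those abundant genes. The median log2 fold change was -0.29 over the 10 factors, 0.016 over all genes tested and -0.13 over the abundant genes. Under mean centring, in which the mean log2 change over all genes is set to 0, the median of all genes moved to -0.15, the genes past the fold threshold went from 2007 higher and 639 lower to 1623 higher and 1055 lower, and 9 of the 10 factors passed, 8 lower and 1 higher. The same 8 and 1 were counted after trends with GC content and gene length were removed.

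**Figure D2:**
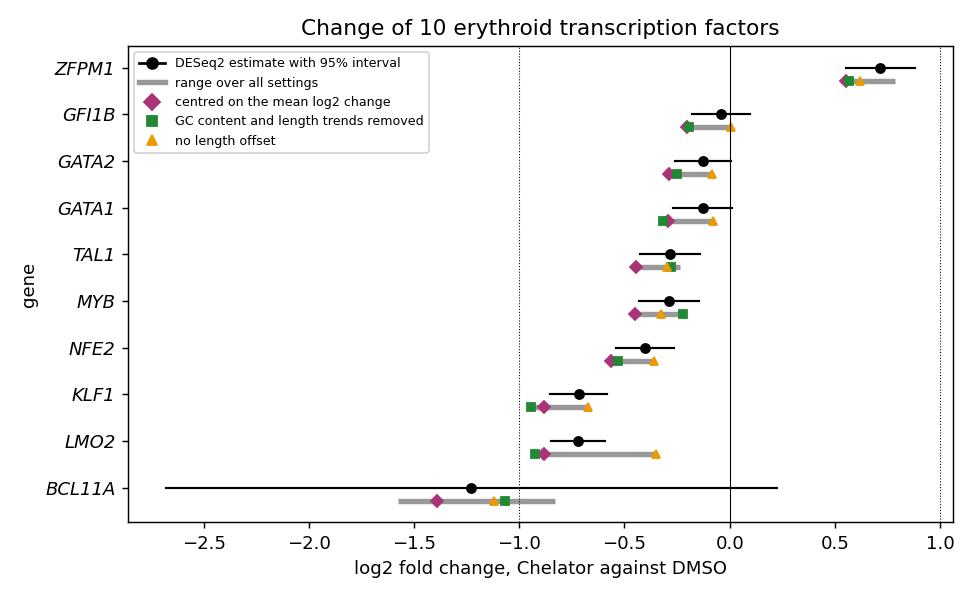
Log2 fold change of each factor, Chelator against DMSO (horizontal axis); black points and lines are the DESeq2 estimates with 95% intervals, grey bars the range over all settings tried, coloured marks 3 of those settings, and dotted lines an absolute log2 fold change of 1. KLF1 and LMO2 lie at -0.72 with narrow intervals, ZFPM1 at 0.72, and BCL11A has a wide interval that spans 0.

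GATA1 and GATA2 were the 2 most abundant factors and differed little between the groups. GATA1, the master regulator of red cell genes (ENSG00000102145.16, chromosome X, 48786540 to 48794311), stood at 169, 178 and 164 TPM in DMSO and at 151, 163 and 164 TPM in Chelator. The values overlapped, with Chelator replicate 1 the lowest. GATA2, which works earlier in blood development (ENSG00000179348.13, chromosome 3, 128479427 to 128493201), stood at 154, 165 and 152 TPM in DMSO and at 140.4, 149.8 and 151 TPM in Chelator. In TPM every Chelator value was below every DMSO value, whereas the normalized counts overlapped. The log2 fold change was -0.13 (95% interval -0.27 to 0.01, DESeq2 adjusted p = 0.149) for GATA1 and -0.13 (-0.26 to 0.01, adjusted p = 0.140) for GATA2. Both passed the DESeq2 test under mean centring (-0.29 each, adjusted p = 8.17e-04 and 6.25e-04), after removal of GC and length trends (-0.32 and -0.25, adjusted p = 8.54e-09 and 6.63e-06), and without DMSO replicate 2 (-0.18 and -0.17, adjusted p = 0.0144 and 0.00968), which held the lowest normalized counts of the DMSO libraries for both. In a DESeq2 fit over start-site groups, described with LMO2, the single GATA1 group also passed (-0.16, SE 0.06, adjusted p = 0.0392).

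No difference in the balance of the 2 GATA factors was measured. The ratio of GATA1 to GATA2 TPM was 1.099, 1.08 and 1.08 in DMSO. In Chelator it was 1.08, 1.09 and 1.08, so the groups overlapped. The means were 1.09 ± 0.0118 and 1.08 ± 0.00737. The difference of the mean log2 ratio, Chelator minus DMSO, was -0.0026 (exact permutation test over libraries, two-sided, p = 1.00), where 3 against 3 libraries cannot give less than 0.10.

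LMO2 and TAL1, which meet in 1 complex, both fell. LMO2, the LIM-domain protein that bridges GATA factors and TAL1 (ENSG00000135363.12, chromosome 11, 33858576 to 33892076), was measured at 88.8, 102 and 87.0 TPM in DMSO. The Chelator libraries gave 56.7, 58.6 and 56.6 TPM, with no overlap and a small spread. Normalized counts averaged 7691 ± 151 in DMSO and 4669 ± 80.3 in Chelator (log2 fold change -0.72, SE 0.066, DESeq2 adjusted p = 6.77e-26). The size rested on how transcript length was treated: it was -0.35 without the length correction and -0.46 when transcripts under 500 bases were left out, with an adjusted p below 0.05 in both, and -0.92 after removal of GC and length trends. TAL1 (ENSG00000162367.12, chromosome 1, 47216290 to 47232225) stood at 48.7, 61.7 and 50.3 TPM in DMSO and at 45.0, 42.9 and 46.1 TPM in Chelator. Every Chelator value was below every DMSO value, and DMSO replicate 2 stood apart as the highest. Its log2 fold change was -0.28 (SE 0.072, DESeq2 adjusted p = 3.84e-04), and -0.45 under mean centring.

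Transcripts of LMO2 start from several sites, and usage of these sites changed. The distal start (LMO2-201, at 33892076) gives the MANE transcript with a coding sequence of 227 codons. The proximal start (LMO2-202, at 33869816), 22260 bases downstream, gives 158 codons. The distal transcript held 6.0%, 7.8% and 9.1% of LMO2 TPM in DMSO and 18.7%, 19.9% and 17.9% in Chelator. The shares did not overlap. Here and below, how often shares of other genes do not overlap was not counted. Counted against the proximal transcript alone, the distal one made up 21.0% ± 3.64 of their joint counts in DMSO and 38.0% ± 1.73 in Chelator. Start-site usage of LMO2 passed the test (edgeR diffSpliceDGE, adjusted p = 2.44e-04), with a largest share change of 11.2 percentage points. It also passed with limma (adjusted p = 1.31e-05) and without each library in turn.

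The level of the distal LMO2 start rose while that of 3 others fell. In a DESeq2 fit over all start-site groups, a fit chosen after the shares had been seen and in which 24.7% of 55535 groups passed an adjusted p under 0.05, LMO2-201 had 910, 1147 and 1332 normalized counts in DMSO and 1694, 1737 and 1557 in Chelator. Its log2 fold change was 0.56 (SE 0.16, adjusted p = 0.00331). LMO2-202 fell from 4237 ± 307 to 2717 ± 55.7 normalized counts (-0.64, SE 0.08, adjusted p = 6.55e-15). The retained-intron transcript LMO2-204 (-1.46, adjusted p = 2.07e-12) and the 390-base LMO2-206 (-1.16, adjusted p = 9.02e-14) fell more. LMO2-206 carried 31.3% to 46.2% of LMO2 TPM on only 305 to 517 counts a library, so its length weighs on every share of LMO2.

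The starts of TAL1 gave different values, though start-site usage as a whole did not pass. TAL1-206, the MANE transcript from the most upstream start, fell from 15093 ± 690 to 10787 ± 1505 normalized counts (log2 fold change -0.48, SE 0.11, DESeq2 adjusted p = 8.39e-05). TAL1-201, which starts further downstream at 47229771 and encodes the same 331 codons, rose from 509 ± 129 to 892 ± 166 (0.81, SE 0.24, adjusted p = 0.00485). Its share was 2.3%, 1.9% and 3.1% in DMSO and 4.1%, 5.7% and 6.1% in Chelator, with no overlap. TAL1-202, between them and with the same codons, had 1586 ± 543 and 1909 ± 636 normalized counts (0.27, SE 0.33, adjusted p = 0.651) and overlapped. TAL1-205, a 504-base transcript with no defined coding sequence, held 7.25% ± 1.97 and 9.05% ± 0.849 of TAL1 TPM and overlapped too. The test of TAL1 start-site usage gave an edgeR adjusted p of 0.164. It did with limma (adjusted p = 0.0133), with edgeR's likelihood ratio test (adjusted p = 0.00218) and when Chelator replicate 1 was left out (0.0353).

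The 2 GATA2 starts with the most counts gave different values. The distal start (led by GATA2-201, at 128493201) fell from 9050 ± 591 to 7098 ± 932 normalized counts (-0.35, SE 0.11, DESeq2 adjusted p = 0.0106). The proximal start (led by GATA2-203, at 128488530, the same 480 codons) had 8601 ± 673 and 8205 ± 243 (-0.07, SE 0.07, adjusted p = 0.604). The transcript GATA2-213, whose start lies inside the gene and whose coding sequence has 192 codons, held 25.8%, 24.3% and 29.3% of GATA2 TPM in DMSO and 33.0%, 34.8% and 33.9% in Chelator, with no overlap. Its level overlapped, at 6053 ± 810 and 6967 ± 218 normalized counts (0.20, SE 0.11, adjusted p = 0.177). The coding sequence of 76 codons (GATA2-212 and 3 others) held 6.73% ± 1.07 and 2.65% ± 1.14 of the TPM. The retained-intron transcript GATA2-204 fell from 1208 ± 303 to 616 ± 143 normalized counts (-0.97, SE 0.26, adjusted p = 0.00115). GATA2 passed the tests of transcript usage (edgeR adjusted p = 9.84e-04) and start-site usage (adjusted p = 0.0111). Neither passed with limma (adjusted p = 0.0578 and 0.0821), with edgeR's likelihood ratio test (0.138 and 0.0753) or without Chelator replicate 1 (0.0608 and 0.230). Transcript usage did not pass without Chelator replicate 2 (0.0522), nor start-site usage without DMSO replicate 3 (0.0818).

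**Figure D3:**
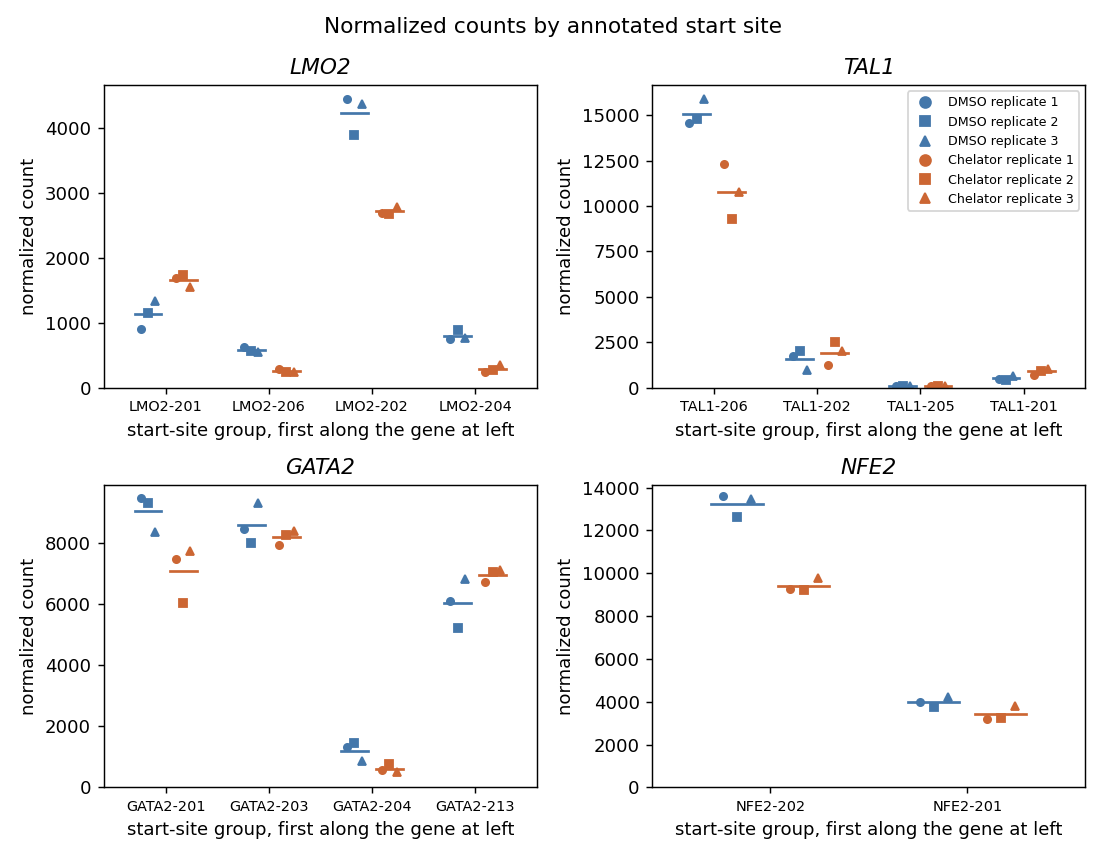
Normalized counts (vertical axes, linear from 0) of start-site groups of LMO2, TAL1, GATA2 and NFE2, named by their leading transcript and ordered from the first start along the gene; points are libraries, short lines group means, blue DMSO and orange Chelator. LMO2-201 rises from 1129 ± 212 to 1663 ± 93.7 while LMO2-202 falls, and the most upstream groups of TAL1, GATA2 and NFE2 fall.

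KLF1 and NFE2, the DNA-binding activators of globin and other late red-cell genes, both fell. KLF1 (ENSG00000105610.6, chromosome 19, 12884422 to 12887201) has 1 annotated transcript, of 362 codons, so no split among transcripts enters its value. It stood at 77.8, 87.4 and 80.7 TPM in DMSO and at 47.7, 52.0 and 52.9 TPM in Chelator. The lowest DMSO library was well above the highest Chelator library. The log2 fold change was -0.72 (SE 0.070, DESeq2 adjusted p = 4.59e-23), or 60.8% of the DMSO level, and KLF1 was also lower in raw estimated counts, at 9797 to 10624 in DMSO and 6923 to 8250 in Chelator. It was -0.88 under mean centring and -0.94 after removal of GC and length trends.

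NFE2, the large subunit of the NF-E2 factor (ENSG00000123405.14, chromosome 12, 54292111 to 54301015), stood at 141, 156 and 142 TPM in DMSO. In Chelator it stood at 106, 114 and 120.0 TPM, below every DMSO library. The log2 fold change was -0.40 (SE 0.071, DESeq2 adjusted p = 1.24e-07). The 2 NFE2 starts that hold nearly all its TPM encode the same 373 codons. The upstream one (NFE2-202 and NFE2-204, at 54301015) fell from 13241 ± 529 to 9406 ± 304 normalized counts (-0.49, SE 0.05, adjusted p = 3.22e-18), and the downstream one (led by NFE2-201, at 54295760) had 3996 ± 218 and 3408 ± 337 (-0.23, SE 0.10, adjusted p = 0.0702). The share of the upstream start was 76.8% ± 0.518 in DMSO and 73.5% ± 1.25 in Chelator, without overlap. Start-site usage of NFE2 did not pass the test with edgeR (adjusted p = 0.892) or limma (0.0905), and its transcript usage had an edgeR adjusted p of 1.00 and a limma adjusted p of 0.0456, with a largest share change of 3.99 points.

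ZFPM1 was the factor that rose. The GATA1 cofactor (ENSG00000179588.9, chromosome 16, 88453280 to 88537031) stood at 15.3, 16.5 and 15.2 TPM in DMSO and at 26.9, 24.4 and 27.5 TPM in Chelator. The groups were far apart, and raw estimated counts were also higher in each Chelator library (9847 to 13063) than in any DMSO library (5829 to 6549). The log2 fold change was 0.72 (SE 0.084, DESeq2 adjusted p = 4.52e-16), or 164.3% of the DMSO level. It was 0.55 under mean centring, 0.57 after removal of GC and length trends and 0.62 without the length correction. Most of it was the full-length transcript ZFPM1-201 (1006 codons), which rose from 7053 ± 583 to 9890 ± 531 normalized counts in the fit over start sites (0.49, SE 0.08, adjusted p = 8.27e-08). Short transcripts that start just downstream rose from 49.0 ± 20.9 to 172 ± 86.7 (1.81, SE 0.57, adjusted p = 0.00818). One of them, the 502-base ZFPM1-203, had 32, 0 and 0 counts in DMSO and 171, 0 and 119 in Chelator, so single libraries decide its share. The average effective length of ZFPM1 ranged from 4393 to 6224 bases between libraries, which enters its TPM and the value of 0.72.

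Of the 2 repressors, GFI1B showed no measured difference and BCL11A was almost absent. GFI1B, which restrains genes of other blood lineages (ENSG00000165702.15, chromosome 9, 132944000 to 132991687), stood at 52.8, 58.8 and 52.6 TPM in DMSO and at 54.7, 54.1 and 53.9 TPM in Chelator. The values overlapped, and the log2 fold change was -0.04 (95% interval -0.18 to 0.10, DESeq2 adjusted p = 0.707). The sign of this value depended on the scaling, since it was 0.0036 with TMM size factors, -0.20 under mean centring (adjusted p = 0.0267) and -0.19 after removal of GC and length trends (adjusted p = 0.0114). BCL11A (ENSG00000119866.22, chromosome 2, 60450520 to 60554467) had 15, 23 and 21 estimated counts in DMSO and 4, 14 and 14 in Chelator. The Chelator counts were all below the DMSO counts, but the TPM values overlapped, and with so few counts the log2 fold change of -1.23 had an interval of -2.68 to 0.22 (DESeq2 adjusted p = 0.195). A difference in BCL11A was not detectable at this depth.

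MYB, which sustains proliferation of progenitors, fell modestly. The gene (ENSG00000118513.20, chromosome 6, 135181308 to 135219173) stood at 82.9, 96.5 and 82.7 TPM in DMSO and at 76.3, 71.1 and 70.7 TPM in Chelator. The groups did not overlap, and the log2 fold change was -0.29 (SE 0.073, DESeq2 adjusted p = 3.02e-04), with -0.45 under mean centring. The main form, MYB-205 with 640 codons, held 51.1%, 49.7% and 50.8% of MYB TPM in DMSO and 45.7%, 44.2% and 47.9% in Chelator. The longest common form, MYB-203 with 761 codons, held 10.5% ± 1.14 and 13.3% ± 0.623, and MYB-209 with 637 codons held 15.0% ± 0.987 and 11.5% ± 0.932. MYB-221 with 611 codons held 5.03% ± 0.740 and 6.46% ± 0.349. None of these 4 overlapped between the groups, though how often shares of other genes do not overlap was not counted. Transcripts annotated as subject to nonsense-mediated decay, a pathway that destroys messages with early stop codons, held 6.58% ± 0.293 in DMSO and 10.4% ± 0.633 in Chelator, again without overlap. MYB had an adjusted p of 0.0183 for transcript usage and 0.0339 for coding-sequence usage (edgeR), but its largest share change, 4.64 percentage points, stayed under the 5 points required for a call. With limma the adjusted p was 0.0779 and 0.0375, and for coding-sequence usage it was 0.287 to 0.930 without each of the Chelator libraries (edgeR). With a filter of at least 50 counts in 3 libraries the edgeR adjusted p was 0.938 and 0.699, and with a total above 10 it was 0.124 and 0.162. With edgeR's likelihood ratio test it was 7.60e-10 and 4.86e-09, still under the 5 points, and without DMSO replicate 2 MYB was called for both (0.00202 and 0.00295, largest share change 5.05 points).

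**Figure D4:**
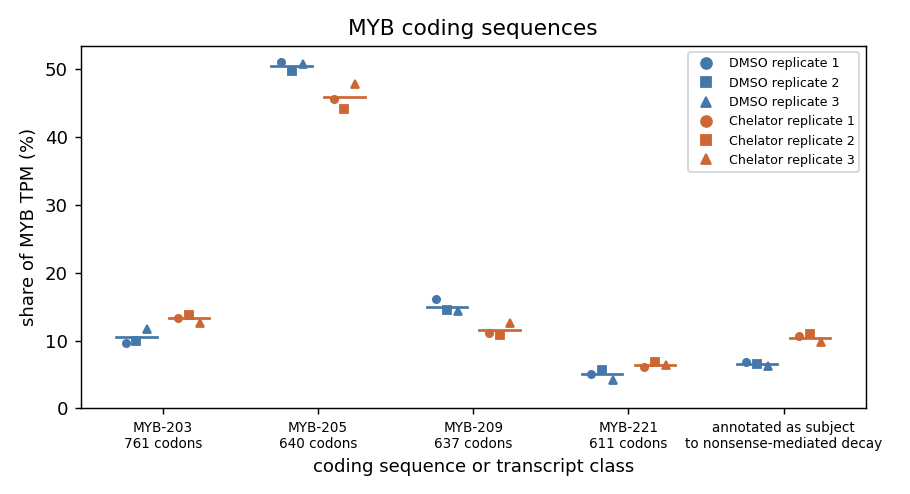
Share of MYB TPM (vertical axis, percent, linear from 0) held by the coding sequences with at least 5% in either group and by all transcripts annotated as subject to nonsense-mediated decay; points are libraries, short lines group means, blue DMSO and orange Chelator. The main form of 640 codons lies lower and the decay class higher in all 3 Chelator libraries.

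Across the set, 2 of the 8 factors that could be tested were called for transcript usage (GATA2 and LMO2), against 9.22% of 11938 genes. With limma and with the likelihood ratio test the 2 were LMO2 and TAL1 (TAL1 adjusted p = 0.00932 and 0.00562, and 0.133 with the quasi-likelihood test of edgeR), TAL1 was also called without Chelator replicate 1 (0.0378), and without a minimum share change MYB made it 3. For start-site usage it was 2 of 7 (GATA2 and LMO2), against 6.64% of 9522 genes, and for coding-sequence usage 1 of 7 (LMO2, adjusted p = 0.00242), against 9.21% of 10362 genes. With limma GATA2 was called for coding-sequence usage too (adjusted p = 0.0148, and 0.201 with edgeR). LMO2's transcript usage (edgeR adjusted p = 0.0330) did not pass without DMSO replicate 1 (0.250), DMSO replicate 2 (0.0668), Chelator replicate 2 (0.201) or Chelator replicate 3 (0.0690), with the replicate block (0.0603) or with a total above 10 (0.0860), nor its coding-sequence usage without DMSO replicate 1 (0.0596). With limma the adjusted p was 1.55e-05 and 1.16e-04. In simulated data with a separate dispersion for each transcript, the edgeR test behind these calls made more false than true calls, and limma made fewer false than true ones. GATA1 was not called. Its main form GATA1-202 (413 codons) held 71.4% ± 1.34 and 68.4% ± 3.17, the 330-codon form GATA1-203 held 17.6% ± 0.373 and 19.3% ± 1.67, the 418-codon form GATA1-204 held 9.92% ± 0.863 and 9.73% ± 1.02, and the groups overlapped for all 3. Its transcript usage had an edgeR adjusted p of 0.456 and a limma adjusted p of 0.0119, with a largest share change of 3.07 points. GFI1B was likewise spread over 3 forms whose shares overlapped, led by GFI1B-202 (330 codons) at 69.1% ± 2.45 and 69.4% ± 1.35, with GFI1B-207 (352 codons) at 15.7% ± 0.875 and 16.97% ± 2.44 and GFI1B-203 (284 codons) at 13.5% ± 2.42 and 11.99% ± 2.42. BCL11A-219 held 75.0% to 88.8% of BCL11A TPM in DMSO and all of it in Chelator, on few counts.

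Genes that overlap the factors on the opposite strand were also examined, because whether the counting used strand is not given in the sources used here. GATA2-AS1, a long noncoding RNA that overlaps GATA2, fell from 3499 ± 78.2 to 2626 ± 68.4 normalized counts (log2 fold change -0.41, SE 0.08, DESeq2 adjusted p = 2.84e-07). A long noncoding RNA that overlaps TAL1, ENSG00000226252, rose from 301 ± 35.0 to 476 ± 8.64 (0.66, SE 0.16, adjusted p = 1.02e-04). TSC1, which overlaps an end of GFI1B, had 3519 ± 351 and 3927 ± 228 (0.16, adjusted p = 0.187), and the others, over LMO2, NFE2, ZFPM1 and MYB, stayed at a mean of 21.7 normalized counts or less in each group. Of the 31-base sequences in each factor's transcripts, between 0% (GATA1 and NFE2) and 13.6% (TAL1) also occurred in counted transcripts of other genes or on their opposite strand.

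Genes that work with the factors are described by lists, read against 18.3% of all genes passing as lower and 19.5% as higher, and 44.6% and 22.9% of the abundant genes. The fold threshold was met by 10.8% of all genes. Of 17 tested complex partners 9 fell and 5 rose (median log2 fold change -0.24, and -0.40 under mean centring). Without the length offset 8 fell and 3 rose (median -0.14). LDB1, the adaptor that joins LMO2, went from 135 ± 9.58 to 90.9 ± 5.05 TPM (-0.60, SE 0.07), and TCF3, an E-protein that pairs with TAL1, from 199 ± 22.9 to 163 ± 1.97 TPM (-0.31, SE 0.06). SSBP3, which stabilizes LDB1, rose from 105 ± 5.65 to 160.1 ± 11.1 TPM (0.58, SE 0.08). RUNX1, a core blood factor, rose from 24.4 ± 3.004 to 53.3 ± 1.95 TPM (1.101, SE 0.07; under the fold threshold under mean centring, at 0.94, and without the length offset). LDB1 was named here after its value was seen. Of 30 coactivators and corepressors 15 fell and 4 rose (median -0.20), and none met the fold threshold. Under mean centring 17 were lower and 1 higher (median -0.37), and without the length offset 17 and 2 (median -0.34). HDAC2 (-0.57, SE 0.07) and RBBP4 (-0.37, SE 0.08), both parts of histone deacetylase complexes, were among those that fell. Among the abundant genes of these 2 lists, 6 of 11 partners and 15 of 28 coactivators and corepressors passed as lower.

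Of the 8 CNC and small Maf factors 3 rose and 2 fell, with a median of 0.13 that became -0.03 under mean centring. BACH2, a repressor at NFE2-type sites, rose from 1.12 ± 0.208 to 6.27 ± 0.905 TPM (2.47, SE 0.14) and MAFF, a small Maf partner, from 3.27 ± 0.206 to 10.97 ± 0.409 TPM (1.71, SE 0.10), while the abundant NFE2L1 and MAFG did not pass (0.14 and 0.08). Of 12 gamma globin repressors 7 fell and 0 rose by adjusted p (DESeq2; with edgeR and the other scalings 0 rose as well), with a median of -0.33. IKZF1 fell from 80.3 ± 12.1 to 29.3 ± 0.357 TPM (-1.48, SE 0.07) and TRIM28 from 603 ± 54.2 to 470.3 ± 29.2 TPM (-0.38, SE 0.07). HIC2, which is not itself a repressor of gamma globin, stood at 103 ± 9.64 and 101 ± 1.34 TPM. Of 14 tested paralogs of the factors 3 rose and 2 fell (median 0.21, and 0.05 under mean centring), and GFI1, the paralog of GFI1B, rose from 0.323 ± 0.0753 to 1.08 ± 0.225 TPM (1.72, SE 0.33). The abundant MYBL2 had 153 ± 11.8 and 163 ± 7.70 TPM (0.06).

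Known targets of GATA1 moved in both directions. Of 30 genes that GATA1 activates, 13 rose, 8 fell and 9 did not pass, with a median of 0.14 that became -0.02, with 8 higher and 8 lower, under mean centring. SLC4A1, the anion exchanger of the red cell membrane, rose from 1.22 ± 0.119 to 5.62 ± 2.46 TPM (2.16, SE 0.37). BNIP3L, which clears mitochondria, rose by 1.76 (SE 0.09), SLC25A37, the mitochondrial iron importer, by 1.06 (SE 0.08; under the fold threshold under mean centring, at 0.90, and without the length offset) and ALAS2, the first enzyme of heme synthesis in red cells, by 1.00 (SE 0.09; 0.84 under mean centring). The fetal globins HBG2 (5274 ± 351 and 6986 ± 271 TPM; 0.37, SE 0.08) and HBG1 (3905 ± 211 and 4702 ± 214 TPM; 0.24, SE 0.08) rose, but they are near-identical copies and their split is uncertain. ALAS2 met the fold threshold in 10 of 17 settings, and not without DMSO replicate 1, DMSO replicate 3 or Chelator replicate 1. TFRC, the transferrin receptor and a marker of the line, stood at 256 ± 31.9 and 1942 ± 115 TPM (2.89, SE 0.10). Of the 10 erythroid markers 6 rose and 1 fell (median 0.30), with 4 and 1 under mean centring (median 0.14) and 8 and 1 with TMM size factors, and of the 10 tested markers of other cell types 6 rose and 2 fell.

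Of 10 genes that GATA1 represses, 3 rose, 4 fell and 3 did not pass (median -0.26), and 3 passed as higher and 6 as lower under mean centring (median -0.42) and without the length offset (median -0.30). VIM, a filament protein of immature cells, rose from 197 ± 11.2 to 470.3 ± 41.1 TPM (1.23, SE 0.09), and SPI1, the myeloid factor that opposes GATA1, from 7.62 ± 0.632 to 21.9 ± 2.20 TPM (1.48, SE 0.12). KIT, the stem cell factor receptor, had 24, 17 and 18 counts in DMSO and 197, 176 and 116 in Chelator. CDK6, a cell cycle kinase, fell from 44.7 ± 10.5 to 21.7 ± 1.26 TPM (-1.05, SE 0.10; short of the fold threshold without DMSO replicate 2 and with GC and length trends removed), and MYC fell by 0.28 on the log2 scale.

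Of 24 tested factors of other lineages 10 rose and 5 fell (62.5% against 37.7% of all genes). The fold threshold was met by 11 of them (45.8% against 10.8% of all genes). The lists share genes, and RUNX1, ERG, GFI1, SPI1 and IKZF1 are counted both here and in a list above. EGR1 (15.1 ± 0.522 to 152 ± 2.81 TPM; 3.30, SE 0.08) and ID2 (2.58 ± 0.892 to 10.9 ± 2.02 TPM; 2.08, SE 0.20) were among the higher ones. MECOM (19.1 ± 1.66 to 7.91 ± 0.383 TPM; -1.30, SE 0.09) and NFIB (1.31 ± 0.320 to 0.636 ± 0.116 TPM; -1.06, SE 0.20; short of the fold threshold without DMSO replicate 2, without Chelator replicate 3 and with GC and length trends removed) were lower, and the abundant HHEX had 74.9 ± 4.14 and 63.0 ± 4.34 TPM (-0.28, SE 0.08). Several were scarce. ERG had no count in DMSO and 14, 27 and 8 in Chelator, at least 14.6-fold higher relative to library totals than a floor of 3 counts over the group. TBX21 had no count in DMSO and 12, 4 and 3 in Chelator (at least 5.67-fold higher) and lost its call without any 1 library. PAX5 had 2, 0 and 2 counts and 25, 20 and 12. With ERG and TBX21 at their bounds the median stayed at 0.42, since both bounds lie above it. Under mean centring the median of the list was 0.25, with 9 genes past the fold threshold. Without the length offset the median was 0.71.

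**Figure D5:**
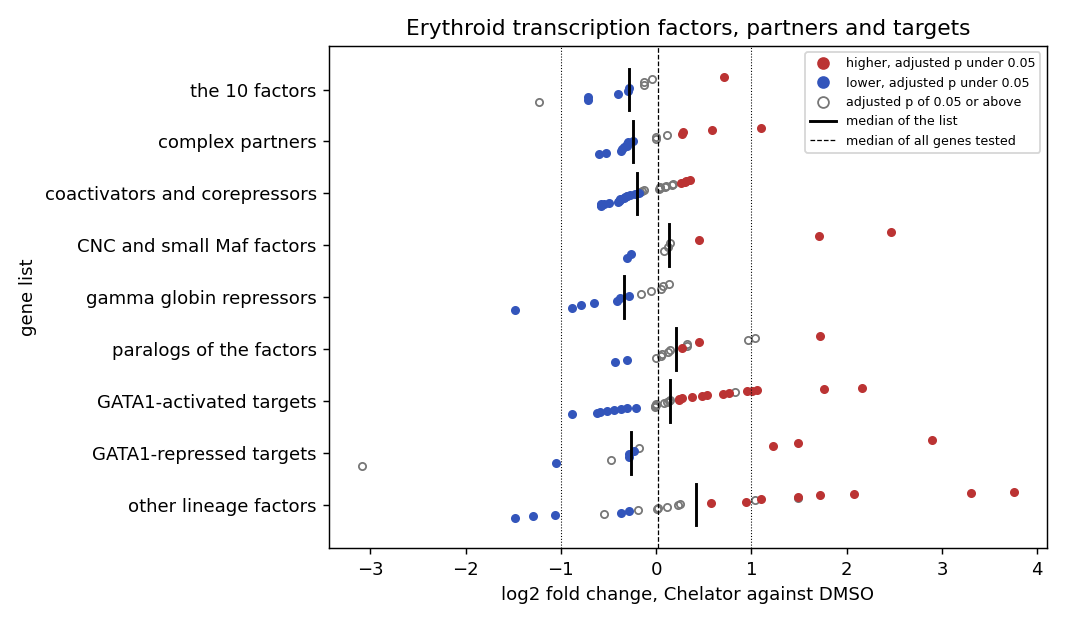
Log2 fold change, Chelator against DMSO (horizontal axis), of each tested gene in the list of 10 factors and in 8 lists of partners, relatives and targets; red and blue points passed an adjusted p under 0.05 as higher or lower, open points did not, black bars are list medians, the dashed line is the median of all genes and dotted lines mark an absolute log2 fold change of 1. ERG and TBX21, at 0 in every DMSO library, are not drawn, and the median of the 10 factors lies at -0.29.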

How the data were processed

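Polyadenylated RNA of 3 DMSO and 3 Chelator libraries of K562 cells was sequenced as paired-end Illumina reads. The authors quantified transcripts with Salmon 1.10.2 and deposited, for 252045 transcripts per library, an estimated count (reads shared between transcripts are divided, so it need not be whole), TPM and an effective length. The transcript annotation behind the deposited tables and whether strand was used are not given in the sources used here. The submitters' processing notes name hg38.

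Transcripts were matched to GENCODE release 44 (251142 with the same version and length), and 433 without a match were left out. Estimated counts were summed per gene, start site (5′ ends within 100 bases) or coding sequence and rounded. DESeq2 1.42.0 (R 4.3.3) compared the groups over 26074 genes with a total above 10, with median-ratio size factors and average transcript length as an offset. Calls required a Benjamini-Hochberg adjusted p under 0.05 and, where stated, an absolute log2 fold change above 1, after the study's methods. Usage was tested with edgeR 4.0.16 (diffSpliceDGE with quasi-likelihood fits, Simes p per gene, transcripts with at least 10 counts in 3 libraries, a share change above 5 percentage points) and with limma 3.58.1. On simulated data with dispersions that differ between transcripts, all usage tests made more false calls than their nominal rate, and edgeR's made more false than true calls, so the limma value is given beside the calls. Shares are of TPM, intervals are 95%, and counting intervals and floors cover counting error only. The genes named were all 10 factors, every called gene and the 2 most abundant genes of each list, transcripts, start sites and coding sequences with at least 5% of a gene's TPM (a few of scarce or noncoding transcripts are not described), and overlapping genes. The alternatives were other normalizations, filters and tools, removal of GC and length trends, and leaving out each library. The factors and lists were chosen with earlier results of these data known, and lists were written from general knowledge. All coordinates are 1-based on GRCh38.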

Additional observations from a re-analysis of the deposited data

How the results depend on the processing

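The direction and side of the 0.05 threshold held for KLF1, LMO2, NFE2, ZFPM1, TAL1 and MYB in all 17 settings of the expression fit that test against no change, and 0 of 10 factors met both thresholds under any. GFI1B changed sign without the length offset (0.0042), with TMM size factors (0.0036) and with edgeR's quasi-likelihood test (0.0037). The log2 ratio of GATA1 to GATA2 changed sign with counts without length scaling (0.0062) and ranged from -0.0092 to 0.0061 when a library was left out. Over all genes, testing against an absolute log2 fold change of 1 left 674 of 2646 calls, and 10 of 20 among the partner and target genes. The number of factors called for transcript usage went from 2 to 1 with a share change above 10 points, with a total above 10 and with the replicate block, and to between 0 and 2 without 1 library. For start-site usage it went from 2 to 1 with 10 points and was 1 to 2 without 1 library, and with limma or the likelihood ratio test, added after the data were seen, the 2 were LMO2 and TAL1. For coding-sequence usage it went from 1 to 2 without a minimum share change and with limma, and to between 0 and 2 without 1 library. The cause of these changes was not tested. Over all genes, 1101 genes called for transcript usage, 632 for start-site usage and 954 for coding-sequence usage became 3184, 1564 and 2839 with limma, 2270, 1151 and 1937 with the likelihood ratio test, and 728, 398 and 617 with 10 points. They became 592, 285 and 508 without Chelator replicate 2 and 539, 275 and 507 without Chelator replicate 3. Same-numbered libraries of the groups deviated from their group means with correlations of -0.074, 0.13 and 0.11. Replicates 2 and 3 correlated best with their own number, and replicate 1 did not. With 3 libraries a group, these correlations cannot settle whether the numbers pair the libraries. The replicate block moved the all-gene calls from 2646 to 2345 and left 6 factors with an adjusted p under 0.05. BCL11A had 4 to 23 counts a library.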

Other observations

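The nearest protein-coding neighbours of the factors were looked at after the values of the factors had been seen. KLF1 lies between DNASE2, a nuclease needed to digest the expelled erythroblast nucleus, and GCDH, a mitochondrial dehydrogenase. DNASE2, 2827 bases from KLF1, rose by 0.88 on the log2 scale (SE 0.085, DESeq2 adjusted p = 9.85e-24). GCDH, 3959 bases away on the other side, fell by 1.06 (SE 0.084, adjusted p = 1.04e-34). HDAC6, next to GATA1, had 0.32 (SE 0.071, adjusted p = 4.55e-05), and COPZ1, 187 bases from NFE2, had 0.082 (SE 0.065, adjusted p = 0.356). ZNF469, 12523 bases from ZFPM1, was scarce and had 2.86 (SE 0.74, adjusted p = 5.05e-04), while ZC3H18, its abundant neighbour on the other side, had -0.34 (SE 0.068, adjusted p = 3.65e-06). Of 19 neighbours tested 6 rose and 8 fell, where 37.7% of all genes and 67.5% of the abundant genes passed in either direction.

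DMSO replicate 2 had the highest TPM of the 3 DMSO libraries for all 10 factors, but the highest normalized count for 2 of them. Mitochondrial genes took 4.42% of its counts, against 7.06% and 6.65% in the other DMSO libraries.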
